A study of Mus musculus with 12 samples.

Results

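Suprabasal keratinocytes sorted from bitransgenic mice were compared with those sorted from wild-type mice. The samples were the 6 that the labels call suprabasal, of 12 in the series, with 3 bitransgenic and 3 wild-type samples, chosen by title. All came from skin of FVB/N mice on postnatal day 4. The labels give the genotypes only as BT (bitransgenic) and wild type, name no allele, and do not say whether the wild-type mice carry either transgene. The series title names progerin. As background from knowledge of the model, and not from the labels, such mice carry a human lamin A minigene with the progeria mutation under a tetracycline-responsive promoter, together with a transactivator driven by the keratin 5 promoter, which is active in basal keratinocytes. Total RNA of the sorted cells was hybridised to Affymetrix MTA-1_0 arrays, and values are log2 signals per transcript cluster, the array's unit for a gene or transcript. Values of a gene follow the order X667_05_L, X682_05_L and X721_05_L for bitransgenic and X667_06_L, X682_11_L and X721_08_L for wild-type arrays. The labels do not say that these codes are separate animals, so every p-value reflects the spread among the samples alone, and 3 arrays a group limit the precision.

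The epidermis renews from keratinocytes of the basal layer, which divide on the basement membrane and make keratins 5 and 14. On moving up they stop dividing, switch to keratins 1 and 10, and build the cornified envelope and the lipids of the skin barrier. Progerin is a truncated lamin A that keeps its farnesyl anchor and stays at the nuclear membrane, and it causes Hutchinson-Gilford progeria. Lamins, SUN proteins and nesprins link chromatin to the cytoskeleton, while Wnt and Notch signals and the orientation of the mitotic spindle act on how epidermal cells renew and stratify.

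The labelled cell type was checked against its markers. Of 22 suprabasal differentiation markers, 16 lay on average above background, taken as the 95th percentile of the intronic control probe sets on each array. This mark differed between arrays, from 8.04 on X667_05_L, with 12.3% of clusters above it, to 8.81 on X721_05_L, with 7.14%. On X721_08_L it was 8.71, with 7.46% above. The part of this difference in array likeness and in list medians was not tested. Krt1, the first keratin of differentiating cells, was at 12.87, 12.67 and 13.06 in bitransgenic and at 12.92, 12.25 and 13.44 in wild-type cells. Krt10, its partner, was at 13.16, 12.99 and 13.36 in bitransgenic and at 13.41, 12.87 and 13.50 in wild-type cells. Both were bright on all 6 arrays. On the basal arrays of the series Krt1 ran from 12.28 to 13.09 and Krt10 from 12.60 to 13.37. These keratins alone therefore do not separate the layers here. The 22 markers averaged 9.97 to 10.59 on suprabasal and 9.59 to 9.97 on basal arrays. Krt5, the keratin of basal cells, was at 13.32, 13.19 and 12.20 in bitransgenic and at 13.38, 13.14 and 13.02 in wild-type cells, so basal keratin RNA was also present. On basal arrays Krt5 ran from 13.42 to 13.54. Of 16 melanocyte markers, 12 also lay on average above background on suprabasal arrays, so melanocyte marker RNA was present too, as described below. In such bulk samples, fewer cells of a type and less RNA per cell cannot be told apart.

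Several arrays differed from their own group. Xist, which coats the inactive X chromosome of female cells, was at 10.69, 10.80 and 4.20 in bitransgenic and at 4.28, 4.18 and 4.23 in wild-type cells. Ddx3y, a helicase gene of the Y chromosome, was at 4.70, 4.56 and 8.38 in bitransgenic and at 8.41, 8 and 8.27 in wild-type cells. Thus 2 of the 3 bitransgenic arrays had a female pattern and the other 4 arrays a male one, so sex and genotype were partly confounded. No wild-type array of either layer had a female pattern. The term for sex used below was thus estimated among bitransgenic arrays alone. Of these, X721_05_L and X721_05_H, the basal array of the same code, were of male pattern. Values with a term for sex lean on that code, and sex and code cannot be told apart. X667_05_L was most alike to the basal array of its own code (Pearson's r = 0.993 over 6398 clusters), and so was the wild-type X667_06_L (r = 0.978). The 16 melanocyte markers averaged 6.94 on X667_05_L, against 9.65 and 10.54 on the other bitransgenic arrays and 8.63, 10.10 and 9.61 on wild-type arrays.

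An array from each group lay nearer to the other genotype than to its own. Likeness between arrays followed the number opening the code in 2 of the 3 pairs: X682_11_L, labelled wild type, was most alike to the bitransgenic X682_05_L (r = 0.987), and the bitransgenic X721_05_L to the wild-type X721_08_L (r = 0.970). Over all clusters, X721_05_L lay nearer to the wild-type mean than to its own group at 57.4% and X682_11_L nearer to the bitransgenic mean at 53.4%, against 43.1% to 48.5% for the other 4 arrays. Outside the sex chromosomes, 68 clusters above background in 1 of the sides differed by at least 1 log2 unit between the bitransgenic arrays and the other 2 wild-type arrays, and at 67 of them X682_11_L lay nearer to the bitransgenic mean. The same count was 10 of 21 for X667_06_L and 4 of 14 for X721_08_L. Among bitransgenic arrays, X721_05_L lay nearer to the wild-type mean at 77 of 85 such clusters, against 3 of 15 for X667_05_L and 7 of 18 for X682_05_L. These clusters were picked by their values, so the counts describe the arrays and test nothing. Both arrays keep their labels here. Counts of called clusters are given with and without the arrays of either code, and list medians with the range over leaving out each suprabasal array.

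**Figure D1:**
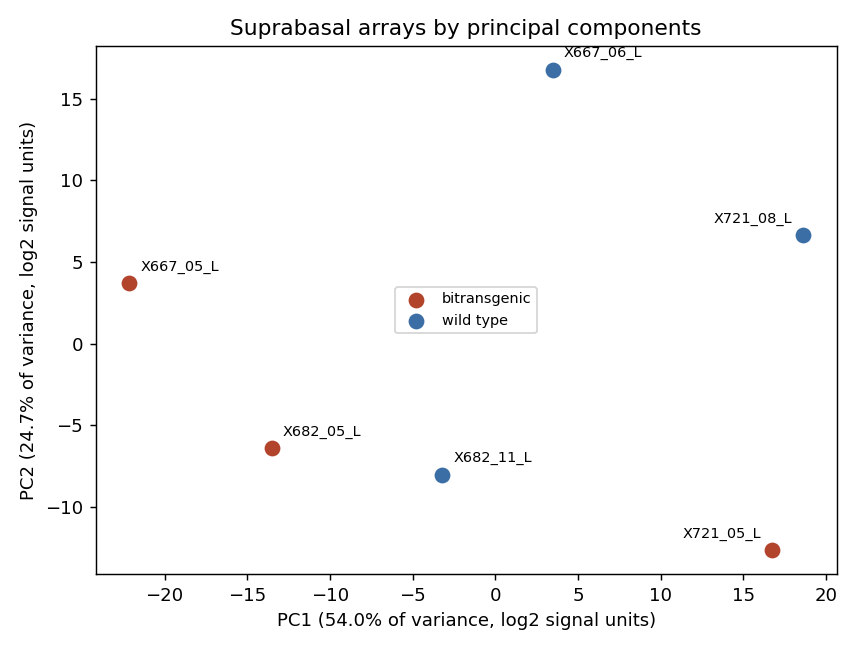
The 6 suprabasal arrays on the first (x axis) and second (y axis) principal components of 6228 clusters above background, in log2 signal units, with bitransgenic arrays in red and wild-type arrays in blue. The components hold 54.0% and 24.7% of the variance, and X682_11_L lies nearest to X682_05_L.

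**Figure D2:**
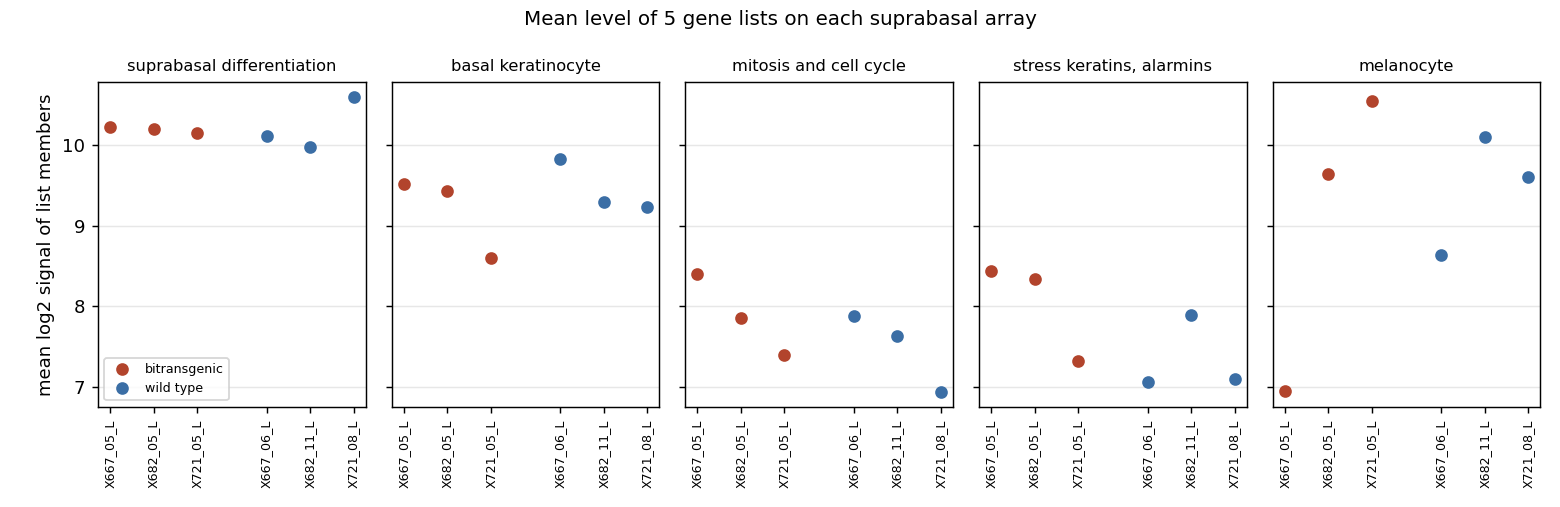
Mean log2 signal (y axis) of gene lists on each array (x axis), with bitransgenic arrays in red on the left and wild-type arrays in blue on the right. Suprabasal markers lie between 9.97 and 10.59 on the 6 arrays, while melanocyte markers are lowest on X667_05_L, at 6.94.

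Limma's moderated test called 0% of clusters, that is 0 of 65956, at an adjusted p under 0.05, and the smallest adjusted p was 0.866. At an unadjusted p under 0.05 there were 3440 clusters, 1079 of them higher in bitransgenic cells (1.64%) and 2361 lower (3.58%). This split moved with the scaling and with the clusters kept. When each array was centred on its median, 2015 were higher and 795 lower, whereas after cyclic loess the counts were 1630 and 1218. A fit that paired arrays by the number opening their code, as a replicate block, had 5479 clusters at an unadjusted p under 0.05 and called 0.

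The genes with the smallest p outside chromosomes X and Y are given as values. Smc3, a subunit of the cohesin ring that holds sister chromatids together, was at 9.54, 9.49 and 9.49 in bitransgenic and at 9.22, 9.22 and 9.10 in wild-type cells. Its difference of 0.33 ± 0.07 (log2, SE) had the smallest unadjusted p of the 30 genes, and the groups did not overlap. Hsph1, a large heat shock protein that helps Hsp70, was at 10.38, 9.71 and 9.68 in bitransgenic and at 9.28, 9.34 and 9.04 in wild-type cells, highest on X667_05_L. Its difference was 0.70 ± 0.20. Sprr1b, a cornified envelope precursor induced in stressed epidermis, was at 8.92, 8.78 and 8.85 in bitransgenic and at 7.69, 8.43 and 8.27 in wild-type cells, a difference of 0.72 ± 0.22.

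Serp1, which stabilises new membrane proteins of the endoplasmic reticulum, differed by 0.50 ± 0.16. Rpn1, of the enzyme that adds sugars to proteins, differed by 0.30 ± 0.08, and Ppib, a folding enzyme, by 0.21 ± 0.06. In none of these did the groups overlap. Mapre1, which tracks growing microtubule ends, differed by 0.21 ± 0.06 and Hnrnpm, a splicing factor, by 0.21 ± 0.06. The other genes were Ngdn, Mrpl49, Ppp4c, Ppp2cb, Ythdf3, Pdcd10 and Septin7, with differences of 0.25 to 0.35, and Ythdf3 was the 1 gene of the 15 whose groups overlapped. Rlim, kept apart as a gene of the X chromosome, was at 10.25, 10.17 and 10.34 in bitransgenic and at 9.87, 9.86 and 9.92 in wild-type cells. It differed by 0.37 ± 0.10 without overlap and was not called.

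On the lower side, Krt15, a keratin of basal cells and of the hair follicle bulge, was at 11.22, 11.19 and 10.93 in bitransgenic and at 13.03, 11.52 and 12.76 in wild-type cells. The difference was -1.32 ± 0.42, without overlap, and X682_11_L was the wild-type array nearest to the bitransgenic values. Without both X682_11 arrays it was -1.78 ± 0.16 and limma's adjusted p was 0.0193. That exclusion was chosen after seeing the data and takes out the wild-type array nearest to bitransgenic values. The p-value therefore describes and does not test. Apcdd1, a membrane inhibitor of Wnt signals, was at 9.64, 9.80 and 9.40 in bitransgenic and at 10.65, 9.88 and 10.37 in wild-type cells. Bcl9l, a coactivator that binds β-catenin, was at 8.49, 8.44 and 8.29 in bitransgenic and at 8.72, 8.63 and 8.83 in wild-type cells. Neither group pair overlapped and neither gene was called. Rgma, a co-receptor for bone morphogenetic proteins, differed by -0.42 ± 0.10 and Emp2, a membrane protein of epithelia, by -0.32 ± 0.08. Cat, which breaks down hydrogen peroxide, differed by -0.38 ± 0.13 and Stim1, a calcium sensor of the endoplasmic reticulum, by -0.31 ± 0.10. The rest were Itprid2, Adgra3, Pik3r2, Naxd, Ephb6, Zfp395, Jmjd8 and Cachd1, from -0.55 to -0.26, of which Cachd1 overlapped. The adjusted p was 0.866 for all 30 genes.

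**Figure D3:**
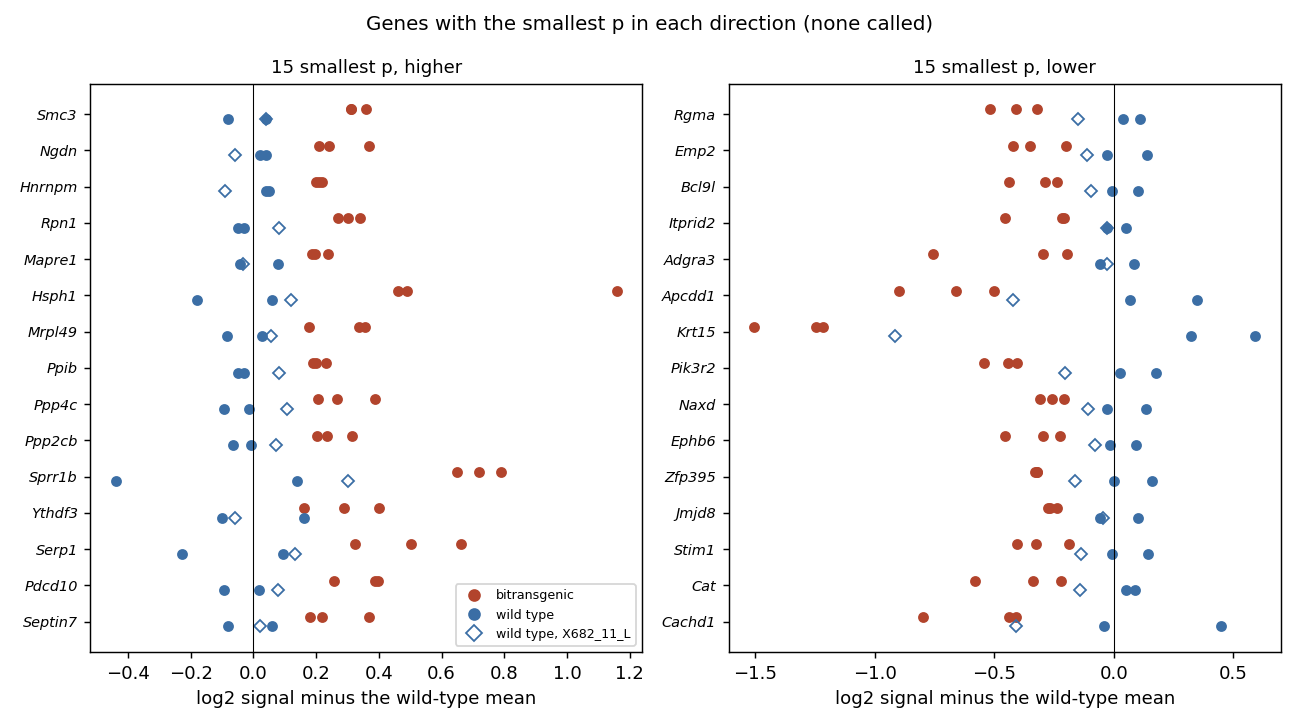
Log2 signal of each suprabasal array minus the wild-type mean (x axis), for 15 genes on the higher side and 15 on the lower side. These genes had the smallest p outside chromosomes X and Y. Red points are bitransgenic arrays, blue points wild-type arrays and open diamonds X682_11_L, and the genotypes overlap in Ythdf3 and Cachd1 alone among the 30 genes.

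Gene groups are described by counts beside those over all 30807 genes. The bitransgenic arrays all lay above the wild-type arrays in 978 genes (3.17%) and all below in 3309 (10.7%), with a median difference of -0.02. The difference was positive in 12858 of the 30807 genes, fewer than were not, and the counts of positive members below are to be read against that. Of the 30807 genes, 4581 lay above background on average, so that count is set mostly by dim genes. A count of positive differences among those 4581 alone was not made, so lists of bright genes have no like baseline. Among clusters above background with an unadjusted p under 0.05, more were higher than lower, as given above. Centred arrays gave 6.01% above and 2.85% below, and cyclic loess 5.98% and 4.98%. With all arrays, 0 members of the lists were called.

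Of 42 measured genes of the lamina, envelope and pores, 31 had a positive difference and the median was 0.12. The bitransgenic arrays all lay above in 6 and below in 1. Lmna, which encodes lamins A and C, was at 10.82, 10.79 and 10.78 in bitransgenic and at 10.74, 10.84 and 10.55 in wild-type cells. Whether its probes read the human minigene is not given, so it does not check the genotype. Sun1, which binds lamin A at the inner membrane, was at 8.65, 8.47 and 8.46 in bitransgenic and at 8.98, 8.65 and 8.96 in wild-type cells, a difference of -0.34 ± 0.13 with the groups touching at 1 value. Nup98, a pore protein, was at 9.82, 9.72 and 9.67 in bitransgenic and at 9.60, 9.54 and 9.51 in wild-type cells, a difference of 0.19 ± 0.09, and Nup153, of the nuclear basket, differed by 0.16 ± 0.10. Nup50, its binding partner, differed by 0.22 ± 0.10 with overlap. Sun2 and Lmnb2 were not above background on any of the 6 arrays. Leaving out single arrays, the list median ran from 0.07 (without X667_05_L) to 0.17 (without X721_05_L), and it was 0.04 with a term for sex.

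Of 70 Wnt ligands, receptors and transducers, 17 lay above background, 18 had a positive difference, and the median was -0.08. The bitransgenic arrays lay below in 8, a share near the 10.7% over all genes, and above in 0, against 3.17% over all genes. Of those 8, Bcl9l alone was above background. Wnt4, a ligand, was at 9.07, 8.65 and 8.32 in bitransgenic and at 9.57, 8.77 and 9.24 in wild-type cells, a difference of -0.51 ± 0.24. Lrp5, a co-receptor, differed by -0.20 ± 0.12. Of 21 feedback targets, 8 were positive with a median of -0.05. Axin2, the classical target, was at 7.91, 8.26 and 8.50 in bitransgenic and at 8.13, 8.41 and 8.49 in wild-type cells. Myc, a growth regulator, differed by -0.31 ± 0.14 and Znrf3, which removes Wnt receptors, by -0.19 ± 0.13. Centring the arrays brought the medians to -0.03 for components and 0 for targets. Over single arrays left out they ran from -0.12 (without X721_08_L) to -0.07 (without X667_06_L) for components and from -0.11 (without X721_05_L) to -0.01 (without X667_05_L) for targets.

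Spindle orientation and polarity genes had 13 of 35 positive and a median of -0.04, which centring turned to 0.02 and which was 0.01 without X721_05_L. Vangl2, a planar polarity protein, was at 8.69, 8.62 and 8.58 in bitransgenic and at 8.91, 8.72 and 9.17 in wild-type cells, a difference of -0.30 ± 0.15. Celsr1, a polarity cadherin, differed by -0.62 ± 0.33, and Pafah1b1, which regulates dynein, by 0.25 ± 0.11. Numa1, which tethers spindle poles, was at 9.41, 9.46 and 9.50 in bitransgenic and at 9.72, 9.49 and 9.50 in wild-type cells. Of 32 Notch genes, 7 were positive with a median of -0.11, which was -0.05 without X721_08_L. Notch1, a receptor that promotes differentiation, was at 9.76, 9.58 and 9.36 in bitransgenic and at 10.07, 9.66 and 10.15 in wild-type cells, a difference of -0.39 ± 0.17. Hes1, a target, was at 7.86, 8.03 and 7.94 in bitransgenic and at 8.96, 8.09 and 8.32 in wild-type cells, above background on 1 array.

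In differentiation markers the groups overlapped for every one of 22 genes, with a median of -0.04. Its sign was not stable: single arrays left out gave -0.21 (without X682_11_L) to 0.10 (without X721_08_L), a term for sex 0.02 and cyclic loess -0.12. Flg, the filaggrin precursor, was at 9.74, 10.64 and 10.40 in bitransgenic and at 10.04, 9.79 and 10.83 in wild-type cells. Ivl, an envelope protein, differed by 0.30 ± 0.65. Tgm1, which crosslinks the envelope, was at 10.58, 10.42 and 9.92 in bitransgenic and at 8.90, 10.15 and 9.75 in wild-type cells, with X667_06_L lowest. Cornified envelope genes had a median of 0.07, whose sign also turned, from -0.22 (without X682_05_L) to 0.24 (without X667_05_L) over single arrays left out and -0.07 with a term for sex. Barrier lipid genes had one of 0.20, with 23 of 29 positive. Abca12, a lipid transporter of lamellar bodies, was at 10.24, 10.14 and 10.06 in bitransgenic and at 8.95, 10.03 and 9.88 in wild-type cells, again lowest on X667_06_L. The lipid median ran from 0.02 (without X667_06_L) to 0.33 (without X721_08_L) and was 0.10 with a term for sex. Desmosome and adhesion genes had a median of -0.13, which ran from -0.19 (without X682_11_L) to -0.04 (without X721_08_L). Cdh1, the epithelial cadherin and a member of that list, differed by -0.21 ± 0.09. Basal markers had 4 of 20 positive and a median of -0.16, which ran from -0.41 (without X667_05_L) to 0.06 (without X721_05_L) and was -0.60 with a term for sex. Itga6, an integrin of the basement membrane, was at 9.93, 9.83 and 8.18 in bitransgenic and at 9.75, 9.38 and 8.74 in wild-type cells, lowest on both X721 arrays. Trp63, the regulator of stratified epithelia, was at 9.49, 9.43 and 8.26 in bitransgenic and at 9.36, 9.21 and 8.94 in wild-type cells.

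Of 40 mitosis and cell cycle genes, 39 had a positive difference with a median of 0.42, and of 36 replication genes 34 with a median of 0.27. Above background on average were 9 and 11 of them. Mki67, a marker of cycling cells, was at 10.72, 10.32 and 10.15 in bitransgenic and at 10.50, 10.28 and 9.70 in wild-type cells. Top2a, the topoisomerase of chromosome separation, was at 9.32, 8.72 and 7.91 in bitransgenic and at 8.52, 8.31 and 6.91 in wild-type cells. Both were highest on X667_05_L and lowest on X721_08_L, and the groups overlapped. The mitosis median was 0.12 without X667_05_L, 0.12 without X721_08_L, 0.50 without the X682_11 arrays and 0.13 with a term for sex. For replication these were 0.11, 0.03, 0.40 and 0.04. X667_05_L also had the lowest melanocyte markers, and their part in the result was not tested.

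Stress keratins and alarmins, made by wounded or inflamed epidermis, had 24 of 25 positive and a median of 0.54. Krt16, a stress keratin, was at 12.56, 12.46 and 12.19 in bitransgenic and at 11.46, 12.13 and 12 in wild-type cells, a difference of 0.54 ± 0.21. S100a8, a subunit of calprotectin, was at 11.02, 10.69 and 6.39 in bitransgenic and at 4.48, 9.79 and 4.29 in wild-type cells. S100a9, the other subunit, was at 10.71, 10.64 and 8.02 in bitransgenic and at 6.65, 10.08 and 6.95 in wild-type cells. Both were high on X667_05_L, X682_05_L and X682_11_L and lower on the other 3 arrays. Ccl20, a chemokine, was at 10.23, 9.36 and 8.37 in bitransgenic and at 7.47, 9.10 and 7.26 in wild-type cells, with the same 3 arrays highest. The list median ran from 0.31 (without X667_05_L) to 0.76 (without X682_11_L) and was 0.04 with a term for sex. X667_05_L and X682_05_L, of female pattern, and X682_11_L, of male pattern, had the 3 highest list means.

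Immediate-early genes, switched on within minutes of a stimulus, had 1 of 24 positive and a median of -0.46. The bitransgenic arrays lay below in 6 and above in 1. Fos was at 9.68, 9.89 and 10 in bitransgenic and at 11.54, 10.22 and 10.78 in wild-type cells. Jun, its dimer partner, was at 10.92, 11.15 and 11.04 in bitransgenic and at 11.99, 11.17 and 11.30 in wild-type cells. Egr2, a zinc finger factor, differed by -0.40 ± 0.17 and Btg2, an antiproliferative protein, by -0.72 ± 0.28. X667_06_L was the highest array for Fos, Jun, Btg2 and Fosl2, and X682_11_L the wild-type array nearest to the bitransgenic values. The median was below 0 in each alternative computed for the list, at -0.66 without the X682_11 arrays, -0.29 without X667_06_L, -0.28 with a term for sex and -0.51 with cyclic loess.

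Heat shock genes had a median of 0. Hspa1a, the inducible Hsp70, was at 9.24, 9.32 and 9.11 in bitransgenic and at 10.66, 9.55 and 9.96 in wild-type cells, lower on every bitransgenic array. Chordc1, a chaperone cofactor, was at 8.49, 8.11 and 7.75 in bitransgenic and at 7.59, 7.60 and 7.35 in wild-type cells, above background on 1 array. Of 39 respiratory chain genes, 38 were positive with a median of 0.14, which ran from 0.08 (without X721_08_L) to 0.23 (without X721_05_L) and was 0.02 with a term for sex. Sdhb, of complex II, was at 9.82, 9.75 and 9.76 in bitransgenic and at 9.57, 9.71 and 9.39 in wild-type cells, and Ndufa9, of complex I, differed by 0.28 ± 0.09. Targets of p53 had a median of -0.09, from -0.15 (without X682_11_L) to -0.06 (without X667_06_L), and Cdkn1a, the inhibitor p21, was at 10.96, 10.85 and 11.11 in bitransgenic and at 10.92, 10.89 and 11.18 in wild-type cells. Areg, a keratinocyte growth factor, was at 8.70, 8.08 and 7.89 in bitransgenic and at 7.33, 7.69 and 7.23 in wild-type cells, above background on 1 array. DNA damage genes had a median of 0.15, which was -0.01 with a term for sex and 0.07 without X667_05_L. Medians were 0.02 for chromatin enzymes, which was -0.02 without X667_05_L, 0.04 for sterol and fatty acid synthesis, -0.04 for barrier proteases, which centring turned to 0.01, and 0.16 for sex-linked genes, which was -0.03 with a term for sex. Interferon genes, with 1 of 32 above background, and EGF family genes had medians that rounded to 0.

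**Figure D4:**
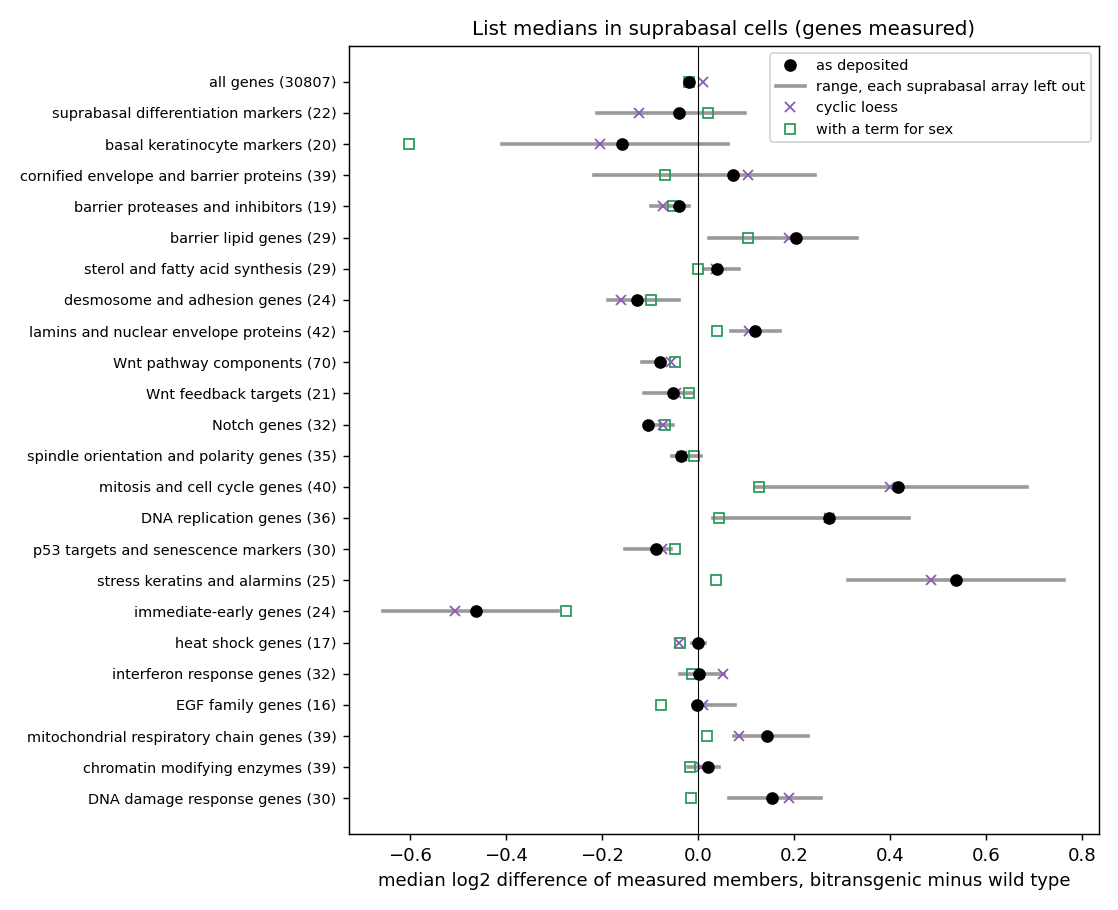
Median log2 difference (x axis, bitransgenic minus wild type) of the measured members of each gene list (y axis), as deposited, with cyclic loess and with a term for sex, and the range over leaving out each suprabasal array as a grey bar. Immediate-early genes lie at -0.46 and stress genes at 0.54, and with a term for sex these are -0.28 and 0.04.

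Markers of other cell types were described list by list. Of the T cell, endothelial, muscle, adipocyte, Merkel cell, erythroid and hair shaft markers 0 lay above background, and 2 fibroblast, 1 Langerhans and myeloid, 1 mast cell and 1 nerve markers did. Their medians ran from -0.16 to 0.02. The mast cell marker was Kit, which is also in the melanocyte list, so it is no separate evidence of mast cells. The fibroblast markers were Vim and Sparc. Kit ran from 6.40 on X667_05_L to 11.15 on X721_05_L and Vim from 8.05 to 11.33 on the same arrays. The melanocyte mean was also lowest and highest on these arrays. Sparc ran from 9.97 to 10.39. Of 16 melanocyte markers 12 lay above background. Their mean ran from 6.9 to 10.5 on suprabasal arrays and from 5.8 to 6.5 on basal arrays, where Dct ran from 6.24 to 8.04. The suprabasal samples thus held more melanocyte marker RNA than the basal ones. Dct, an enzyme of melanin synthesis, was at 9.14, 12.29 and 12.98 in bitransgenic and at 11.57, 12.69 and 12.35 in wild-type cells, lowest on X667_05_L, and the list median of -0.44 ran from -1.32 (without X721_05_L) to 0.70 (without X667_05_L), with -0.11 without the X682_11 arrays and 0.27 with a term for sex. Sebocyte genes had a median of 0.33, from 0.10 (without X721_08_L) to 0.57 (without X682_11_L) and -0.08 with a term for sex. Hair follicle genes had one of -0.05, from -0.18 (without X721_08_L) to 0.01 (without X667_06_L).

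Leaving out X682_11_L and X682_11_H gave 16 called clusters, 4 higher (0.00606%) and 12 lower (0.0182%) in bitransgenic cells. This alternative was chosen after seeing the data, so the calls are a description. With all arrays the same clusters had unadjusted p of 0.00989 to 0.245 and 0 were called. The calls depended on the fit: on suprabasal arrays alone 3 clusters were called, 2 of them among the 16, and with a term for sex 9, 5 of them among the 16. The count was 0 without both arrays of X667_06, X721_08 or X667_05, and 5 (0.00758%) without those of X721_05, where Xist was higher and the Y-linked Kdm5d, Uty, Eif2s3y and Ddx3y were lower.

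Armc1, a mitochondrial protein gene on chromosome 3 of mm10 from 19132144 to 19163065 on the minus strand, was at 12.16, 12.06 and 11.75 in bitransgenic and at 7.95, 11.97 and 8.18 in wild-type cells. On both wild-type arrays other than X682_11_L it was not above background, so it was at least 10.5-fold higher in bitransgenic cells than on those 2 arrays (limma's adjusted p = 2.18e-05). A cluster with no symbol on the same strand, from 19143188 to 19143761 and so inside the Armc1 interval, was at 11.05, 11.19 and 10.45 in bitransgenic and at 4.49, 10.75 and 5.90 in wild-type cells. Gstm5, a glutathione transferase, was at 10.91, 10.98 and 10.33 in bitransgenic and at 8.19, 10.59 and 8.38 in wild-type cells, at least 4.42-fold higher on the same footing. Casp4, an inflammatory caspase, was at 7.51, 6.95 and 6.79 in bitransgenic and at 4.75, 6.83 and 4.93 in wild-type cells, below background on every array.

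Among the lower genes, Cyp2f2, a cytochrome P450, was at 5.86, 5.78 and 5.94 in bitransgenic and at 9.26, 6.01 and 9.89 in wild-type cells. It was at least 2.38-fold lower in bitransgenic cells than on the wild-type arrays other than X682_11_L. Cyp2w1, of the same family, was at 7.70, 7.58 and 7.64 in bitransgenic and at 10.08, 7.61 and 10.13 in wild-type cells, at least 3.44-fold lower. Npl, an enzyme of sialic acid breakdown, was at 9.77, 9.37 and 9.63 in bitransgenic and at 10.89, 8.83 and 11.33 in wild-type cells, with X682_11_L below every bitransgenic array. Igf2, a fetal growth factor, was at 6.68, 6.74 and 6.55 in bitransgenic and at 8.59, 6.79 and 8.11 in wild-type cells. It was above background on X667_06_L alone, so its bound on the same footing was only 1.02-fold. Ror1, a Wnt5a receptor, was at 6.69, 6.76 and 6.56 in bitransgenic and at 8.57, 6.62 and 8.88 in wild-type cells. It was below background on every bitransgenic array and at least 1.32-fold lower on the same footing. Cpxm2, Slc22a4, Gadl1, Gnptab, Fosl2, Krt15 and an unnamed cluster on chromosome 4 made up the 12. The bounds were 1.84-fold for Cpxm2 and 1.52-fold for Slc22a4. Gadl1 and the unnamed cluster were below background on every suprabasal array. X682_11_L lay nearer to the bitransgenic mean than to the other wild-type arrays in 16 of 16 clusters and within the bitransgenic range in 11. Its position elsewhere was what prompted leaving it out, and the clusters are called only without it, so this restates that observation. The 14 named genes lie on chromosomes 1, 3, 4, 5, 7, 9, 10 and 11.

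**Figure D5:**
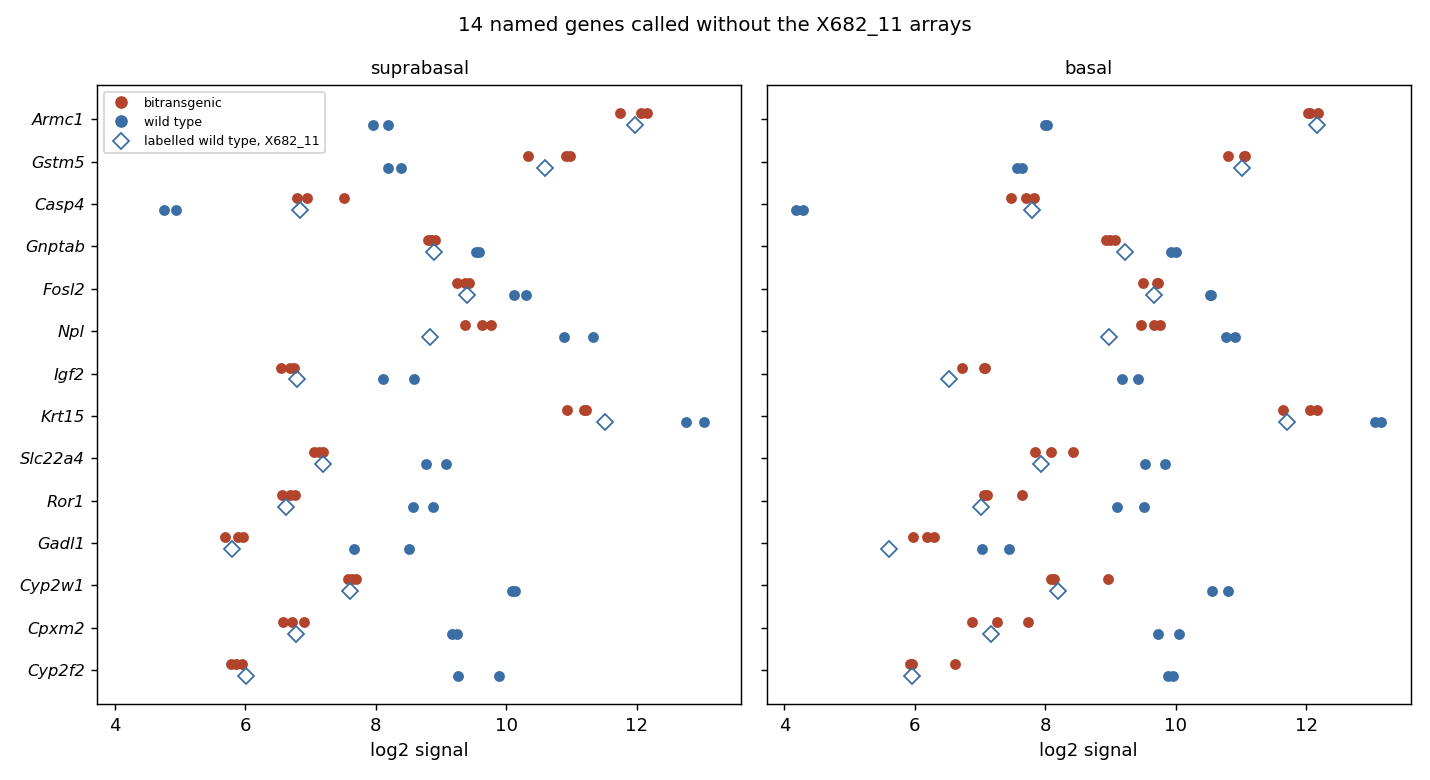
Log2 signals (x axis) of the 14 named genes (y axis) called without the X682_11 arrays, on suprabasal arrays (left) and basal arrays (right), with bitransgenic arrays in red, wild-type arrays in blue and the X682_11 array as an open diamond. For Armc1 the diamond lies at 11.97 in suprabasal and 12.17 in basal cells, near the red points.

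Start-site sequences of 1 gene from each side are shown, since Gstm5 was higher and Cyp2f2 lower with the same array exception. They are RefSeq windows of GRCm38.p6, from 250 bases before to 50 after the start, of a reference strain other than FVB/N. Capitals mark matches on either strand to TGANTCA (AP-1), TGACNNNGC (the antioxidant response element core) or ATCAAAG (TCF/LEF). The Gstm5 window is chr3:107895604-107895903 and the Cyp2f2 window chr7:27119705-27120004, both on the plus strand.
Gstm5: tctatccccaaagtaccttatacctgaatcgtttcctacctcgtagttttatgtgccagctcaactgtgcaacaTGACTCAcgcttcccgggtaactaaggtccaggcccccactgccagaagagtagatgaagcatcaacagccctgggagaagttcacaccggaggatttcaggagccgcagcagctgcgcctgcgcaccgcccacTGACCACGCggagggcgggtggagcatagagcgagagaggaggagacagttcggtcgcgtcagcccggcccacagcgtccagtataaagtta
Cyp2f2: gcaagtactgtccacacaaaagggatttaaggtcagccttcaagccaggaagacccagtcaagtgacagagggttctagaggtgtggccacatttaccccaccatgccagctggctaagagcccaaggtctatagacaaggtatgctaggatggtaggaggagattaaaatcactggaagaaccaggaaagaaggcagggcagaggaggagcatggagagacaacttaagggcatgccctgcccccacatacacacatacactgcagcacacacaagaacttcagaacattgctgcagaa
Of 32851 windows of this length, 7.81% held the AP-1 letters, 12.4% the antioxidant element core and 3.73% the TCF/LEF letters. Gstm5 held 1 match to each of the first and second, and Cyp2f2 held 0. A match describes the letters of the window and no more. Windows were found for 12 of the 14 named genes. Among these, the AP-1 letters were in Gstm5 alone. The antioxidant core was also in 1 of 4 windows of Igf2 and in the 1 window of Gadl1, both lower genes. Casp4, a higher gene, had 0 matches in its 2 windows. The 2 sequences shown are thus no contrast between higher and lower genes.

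Basal arrays showed the same exception. Armc1 was at 12.18, 12.06 and 12.02 on the bitransgenic basal arrays X667_05_H, X721_05_H and X722_07_H, and at 7.99, 12.17 and 8.03 on the wild-type basal arrays X667_06_H, X682_11_H and X721_08_H. Cyp2f2 was at 5.96, 6.61 and 5.92 on the bitransgenic basal arrays and at 9.88, 5.96 and 9.96 on the wild-type ones. X682_11_H, of the same code, lay nearer to the bitransgenic basal mean in 16 of 16 clusters. Without the X682_11 arrays, 15 of the 16 were also called between basal groups, where 0.044% of all clusters were higher and 0.226% lower. The layers share most codes and 1 estimate of the spread, so the basal calls are no independent evidence. The test of the difference between layers called 0 of the 16, with adjusted p of 0.716 or more, and with all arrays it called 0% of clusters, with 6734 at an unadjusted p under 0.05.

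In the authors' deposited table, which counts X682_11_L as wild type, the smallest q-value of this comparison was 0.236 and 4499 clusters had a p-value under 0.05. The signed fold was 2.70 for Armc1 and -9.32 for Cyp2f2 in the authors' deposited table. Cyp2f2 was below background on every bitransgenic suprabasal array. Its bound with all wild-type suprabasal arrays kept was 1.04-fold lower, so the -9.32 is not a measured fold.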

How the data were processed

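The deposited log2 signals were made by the authors with RMA in Affymetrix Expression Console, per the submitters' processing notes, for mm10 per the labels. RMA normalizes quantiles across arrays, which can mask a change common to many genes. The authors' table adds a signed fold, treated as a score, with p-values and q-values that the authors deposited.

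Of 72688 probe sets, 6732 controls (9.26%) were left out. Of the clusters, 30638 had 1 symbol in the platform annotation, 669 took theirs from the deposited file, and 2176 with several symbols stayed unnamed; the brightest cluster stood for each of 30807 genes. Limma 3.58.1 in R 4.3.3 fitted 4 group means to 12 arrays with Benjamini-Hochberg adjustment, and was tested on simulated data. A fold against a group with no array above background is a bound against, per array, the higher of its background mark and its own signal.

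The number opening each code pairs suprabasal arrays: deviations from group means correlated at 0.308 to 0.485 between same-numbered arrays and at a median of -0.253 otherwise, as seen in the values, since no label states it. Deviations within a group cancel at each cluster, so positive correlations of same-numbered arrays push the others to negative values. The negative median is thus no independent contrast. Named genes were those called, or the 15 with the smallest p each way above background on all 3 arrays of a group, up to 4 members of each of 38 lists, and a fixed set in which Syne2 and Ctnnb1 had no cluster of their own. Predicted gene models, small RNAs, receptors of smell and ribosomal proteins were excluded. Genes on chromosomes X and Y were left out of the 15 each way and named apart. Nup153, Hes1, Top2a, S100a8, S100a9, Ccl20, Jun, Chordc1, Areg and the genes called without X682_11 arrays were chosen after their values were seen. Members and lists were chosen with earlier results of these data known. Alternatives were scaling, filters, moderation, array weights, blocks, sex, left-out arrays, the Student test named in the series design and the authors' table.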

Additional observations from a re-analysis of the deposited data

How the results depend on the processing

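With all arrays, 0 clusters were called under other scaling, filters, moderation, array weights, terms for sex, Student tests and the authors' deposited table, or with the replicate block, which changed no call, or without any single array (0 to 0). Unadjusted p under 0.05 held for 3440 clusters, against 5479 with the replicate block, 5585 with the replicate block and sex, 9518 with array weights, 350 of the 4987 clusters above background, and 2188 to 6445 without single arrays. Leaving out all arrays of a code was chosen after seeing the data. Without X682_11 there were 16 calls and 3 called list members, and without X721_05 5 and 5, which are sex-linked. Other fits without X682_11 called 9 with a term for sex (5 among the 16), 3 on suprabasal arrays (2 among the 16), 41 among clusters with 1 symbol (14 among the 16) and 0 with the Student test. Over further single arrays the count ran from 3 to 140: 140 without X721_05_L (holding 16 of the 16), 3 without X721_08_L, 4 without X682_05_L or without X722_07_H, and 5 without X667_06_L. Of 141 named genes, 96 kept the sign of their difference in every setting, and the interaction called 0 of them wherever it was computed. Differences within the spread of 3 arrays a group were not detectable, and the cause of each change was not tested.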
